A study of Homo sapiens with 8 samples.

Results

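Distal H3K27ac regions found only in control cells were described here, 1724 of 18678 merged H3K27ac regions and of 6636 distal ones. The members were chosen by measured peak calls. Peaks of both lines with 1 bp or more in common were joined into merged regions. Those kept had peaks from the MP2_NTC list alone and lay clear of the gene ends, taken as windows that reach 2 kb out of and 1 kb into each RefSeq gene (GRCh38.p14) at both of its ends. The presence of a peak in one list and its absence from the other is therefore the rule and no result, and every value below is a description with no test. MP2_NTC and MP2_HDAC1_OE are stable lines of the human pancreatic carcinoma line MIA PaCa-2, and both carry the CRISPR activation vectors lentiMPHv2 and lentiSAMv2. MP2_NTC has a scrambled sgRNA without a target, and MP2_HDAC1_OE has an sgRNA that activates *HDAC1*, the gene of a histone deacetylase. Each line had 2 H3K27ac samples (antibody ab4729) and 2 control samples made without an antibody. The authors deposited 1 list of peaks per line, pooled over both H3K27ac samples, with 22569 peaks for MP2_NTC and 25045 for MP2_HDAC1_OE. With no value per sample there are no replicates, the read depth is unknown, and the intervals given below are 95% intervals for counting error alone.

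H3K27ac, acetylation of lysine 27 on histone H3, is an activating mark placed by the acetyltransferases p300 and CBP and removed by histone deacetylases such as HDAC1. At the start of a gene it marks an active promoter. Away from gene starts it marks active enhancers, which can lie inside the gene they act on, inside another gene or far from any gene, so the nearest gene is a name for the place and not a known target.

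The members themselves are named by position. The sequences shown are the promoters of 4 genes with many members in the body, *DPH6* with 10, *VMP1* with 9, *WDR25* with 7 and *MOK* with 6, because the peaks over these promoters differed while members lay inside all 4 genes. Each runs from 250 bases before to 50 bases after the gene start, is credited to RefSeq (GRCh38.p14) and reads 5′ to 3′ on the strand of the gene. The *DPH6* promoter (chr15:35546116-35546415, minus strand) lay under a region in both lists, as did that of *WDR25* (chr14:100376235-100376534, plus strand). The *VMP1* promoter (chr17:59707404-59707703, plus strand) lay under a region only in MP2_HDAC1_OE, while a region of both lists lay in the wider window around the same start, from 2 kb before to 1 kb after it. The *MOK* promoter (chr14:102305115-102305414, minus strand) lay under a region only in MP2_NTC. Capitals mark matches on either strand to the letters of 8 motifs, namely TGANTCA (AP-1), GGAATG (TEAD), TGTTTAC (FOX), AGATAA for GATA factors, TGTGGT (RUNX), TGACGTCA (CRE), GGGCGG (SP/KLF) and CAGGTG (E-box). None of the matches in these sequences overlapped another.
DPH6: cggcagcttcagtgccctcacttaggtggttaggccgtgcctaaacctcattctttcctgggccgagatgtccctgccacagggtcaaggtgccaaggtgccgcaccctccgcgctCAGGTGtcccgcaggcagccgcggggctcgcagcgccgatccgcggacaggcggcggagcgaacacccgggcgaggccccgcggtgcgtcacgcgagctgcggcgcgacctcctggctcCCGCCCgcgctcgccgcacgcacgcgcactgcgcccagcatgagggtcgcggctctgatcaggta
VMP1: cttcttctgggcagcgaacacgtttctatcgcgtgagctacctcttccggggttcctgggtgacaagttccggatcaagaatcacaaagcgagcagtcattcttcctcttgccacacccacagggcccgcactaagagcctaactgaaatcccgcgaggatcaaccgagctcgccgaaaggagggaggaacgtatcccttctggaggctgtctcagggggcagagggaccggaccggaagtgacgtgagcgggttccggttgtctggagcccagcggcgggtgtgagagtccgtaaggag
WDR25: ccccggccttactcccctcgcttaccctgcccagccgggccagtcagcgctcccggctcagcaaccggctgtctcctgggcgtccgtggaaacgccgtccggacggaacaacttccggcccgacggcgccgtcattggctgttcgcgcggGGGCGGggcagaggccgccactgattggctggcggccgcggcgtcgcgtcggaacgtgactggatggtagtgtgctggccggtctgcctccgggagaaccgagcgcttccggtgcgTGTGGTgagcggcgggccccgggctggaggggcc
MOK: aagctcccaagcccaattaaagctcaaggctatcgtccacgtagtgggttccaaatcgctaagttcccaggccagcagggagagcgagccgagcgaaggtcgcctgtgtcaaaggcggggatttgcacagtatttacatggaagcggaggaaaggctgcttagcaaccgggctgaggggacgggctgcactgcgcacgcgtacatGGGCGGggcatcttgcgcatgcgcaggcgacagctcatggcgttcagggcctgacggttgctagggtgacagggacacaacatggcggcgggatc

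The *DPH6*, *WDR25* and *MOK* promoters each held 1 match to GGGCGG, *DPH6* also held 1 CAGGTG and *WDR25* 1 TGTGGT, and *VMP1* held none of the 8. Promoter sequences were found for 711 of the 833 protein-coding genes with a member in the body. GGGCGG occurred in 70.3% of these 711 promoters (interval 66.9 to 73.6), against 58.5% of 15811 promoters of protein-coding genes and 44.7% of all 27195 promoters in the table. Their median GC content was 67.3%, against 62.7% and 58.3%, so the motif and the base composition moved together and their parts were not tested. AGATAA went the other way, with 4.22% of the host gene promoters, 7.55% of protein-coding promoters and 10.5% of all promoters. The other motifs were found in 4.50% (TGANTCA), 10.4% (GGAATG), 2.11% (TGTTTAC), 10.4% (TGTGGT), 3.38% (TGACGTCA) and 16.0% (CAGGTG) of the host gene promoters, and in 5.76%, 11.7%, 2.62%, 10.8%, 2.59% and 19.9% of protein-coding promoters. A match to these letters describes the sequence and is no evidence of a bound factor. Promoters of host genes of the other distal classes were not compared, so these shares are not shown to be particular to genes with members.

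Distal regions only in MP2_NTC made up 26% of all distal regions (interval 24.94 to 27.05). Another 2735 distal regions were only in MP2_HDAC1_OE and 2177 were in both lists. The members held 2379 MP2_NTC peaks, which were 10.5% of that list, and covered 1535 kb. Most were small, since 69.0% (66.8 to 71.2) consisted of a single peak and the median width was 820 bp, which was also the exact width of 64.4% of them. Distal regions only in MP2_HDAC1_OE were similar, with 67.8% of a single peak, a median width of 820 bp and 57.2% at that exact width. Small size is therefore not particular to the members. Distal regions in both lists had a median width of 1119 bp, and 46.9% of them had a single MP2_NTC peak, but such a region joins peaks of both lists and is wider through the merging itself, so the widths are not comparable. The widest member was 2515 bp (chr6:80637652-80640166, 5 peaks), 171 kb from *BCKDHB*, which encodes a subunit of the branched-chain ketoacid dehydrogenase. The next were 2342 bp inside *CFLAR* (chr2:201149495-201151836), the gene of an inhibitor of caspase-8, and 2321 bp (chr13:80131214-80133534) 202 kb from *SPRY2*, an inhibitor of receptor tyrosine kinase signaling. These wide members did not rank equally high. The signal of the *BCKDHB* member stood above 71.2% of the peaks in its list, while those at *CFLAR* and *SPRY2* stood above 20.4% and 22.0%.

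Members ranked low in their own list. The deposited signal of a peak has no known scale between the lists, so each region was ranked by its strongest peak, as the percentage of peaks in the same list with a lower signal. Members had a median percentile of 33.3 (32.4 to 34.4), with a median signal of 40.5 and a range from 11.7 to 157. In the same list the distal regions that were in both lists had a median percentile of 58.6 (57.0 to 59.8). Of these, 46.9% had a single MP2_NTC peak, against 69.0% of the members. Taking the strongest of several peaks raises a rank, and its part in this difference was not tested. Regions only in MP2_HDAC1_OE were similarly low in their own list, with a median percentile of 36.5 (35.4 to 37.4). Below the middle of the list lay 75.9% of the members (73.8 to 77.8), and 21 of them (1.22%) lay in its top 10%. Read the other way, regions only in MP2_NTC were 72.2% (66.2 to 77.6) of the MP2_NTC distal regions below percentile 10 of the list, 44.8% from percentile 40 to 50, and 8.90% (5.89 to 13.2) above percentile 90. The part that the thresholds of the lists had in the choice of these low ranking members was not tested.

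**Figure D1:**
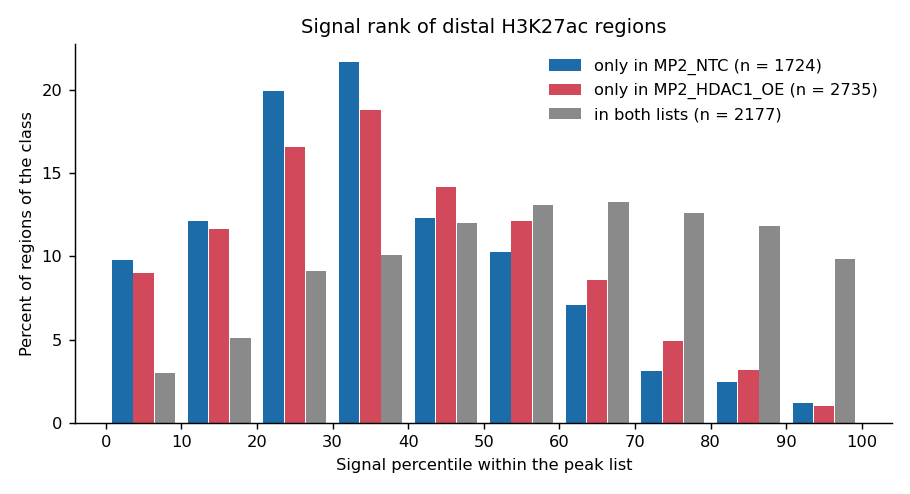
Percent of distal regions in each bin of 10 percentiles of the signal ranking of their own list (x axis), for regions only in MP2_NTC, only in MP2_HDAC1_OE and in both lists (ranked in the MP2_NTC list). Both sets of regions in a single list are highest between percentiles 20 and 40, with 19.95% and 21.7% of the MP2_NTC members in these bins, and regions in both lists are spread toward the top.

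The strongest members were the exception to that low rank, and they lay at genes of varied function. The highest signal of all, 157 at percentile 99.6, belonged to chr21:6371377-6371802 on the short arm of chromosome 21, inside the long noncoding RNA gene *LOC102724701*. The next was 127 at percentile 98.2 inside *CHD9* (chr16:53207990-53208383), the gene of a chromatin remodeler. Between 96.0 and 96.7 in percentile were members inside *BCAR3*, an adaptor protein of cell adhesion signaling, with a signal of 114 (chr1:93769840-93770220), 87.7 kb from *MRM1*, an RNA methyltransferase of mitochondria, with 112 (chr17:36722412-36723231), and inside *BIN1*, which bends membranes, with 110 (chr2:127064339-127064942). Apart from the one on chromosome 21, these strong members had a peak of the other line nearby. The gap to the nearest MP2_HDAC1_OE peak was 60 bp at *CHD9*, 34 bp at *MRM1*, 400 bp at *BIN1* and 738 bp at *BCAR3*.

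Further members among the 12 strongest had signals of 97.5 to 106. They lay inside *LANCL2* (chr7:55366489-55366910, signal 106), inside *LUC7L2*, a splicing factor gene that overlaps the readthrough gene *FMC1-LUC7L2* (chr7:139360575-139361593, signal 101), and 28.3 kb from *PIK3CB*, a catalytic subunit of phosphoinositide 3-kinase (chr3:138863208-138863423, signal 101). Others lay inside *RTEL1*, a helicase gene of telomere maintenance (chr20:63685938-63686894, signal 100.4), and inside *GEMIN7*, a member of the SMN complex (chr19:45079223-45080042, signal 97.5). Another lay inside *LOC102724701*, 74.3 kb from the protein-coding gene *LOC102724560* (chr21:6370171-6370614, signal 99.3). The nearest MP2_HDAC1_OE peak was 100 bp away at *LANCL2*, where it ranked at percentile 96.0 of its own list, so strong peaks of both lines stood side by side there. At *MRM1* and *GEMIN7* the nearest MP2_HDAC1_OE peak was weak, at percentiles 3.10 and 1.58 of that list.

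A group of 3 members lay on the short arm of chromosome 21 and was uncertain in place. At chr21:6368858-6369677, chr21:6370171-6370614 and chr21:6371377-6371802 the signals were 89.0, 99.3 and 157, and the nearest MP2_HDAC1_OE peak was 8.50 Mb away. On this chromosome below 10 Mb the MP2_NTC list had 5 peaks and the MP2_HDAC1_OE list 0. The nearest protein-coding gene was *LOC102724560*, for which the gene table gives *CBSL* as another name, a copy of *CBS* on the long arm. The starts of *CBS* and *LOC102724560* were 36608322 bp apart and those of *U2AF1* and its copy *LOC102724594* 36608333 bp, a difference of 11 bp, so the stretch has a counterpart on the long arm. Moved by the distance of the *CBS* copies, the members came to lie 0.878 to 3.40 kb from the nearest MP2_NTC peak and 1.31 to 3.83 kb from the nearest MP2_HDAC1_OE peak. To which copy such reads belong was not tested.

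Members often lay beside peaks of the other line. The median distance from a member to the nearest MP2_HDAC1_OE peak was 3.78 kb (3.29 to 4.56). Within 500 bp lay 284 members (16.5%), within 2 kb 674 (39.1%, 36.8 to 41.4), within 10 kb 64.5% and within 100 kb 93.2%. In the other direction the distal regions only in MP2_HDAC1_OE had a median distance of 4.67 kb (4.13 to 5.08) to an MP2_NTC peak, and 35.5% lay within 2 kb. For the 674 members within 2 kb, the near peak belonged to a distal region only in MP2_HDAC1_OE in 318 cases (47.2%) and to a distal region of both lists in 238 (35.3%). In the other 118 cases it lay at a gene end. The former were pairs of neighboring regions that each appeared in a single list.

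**Figure D2:**
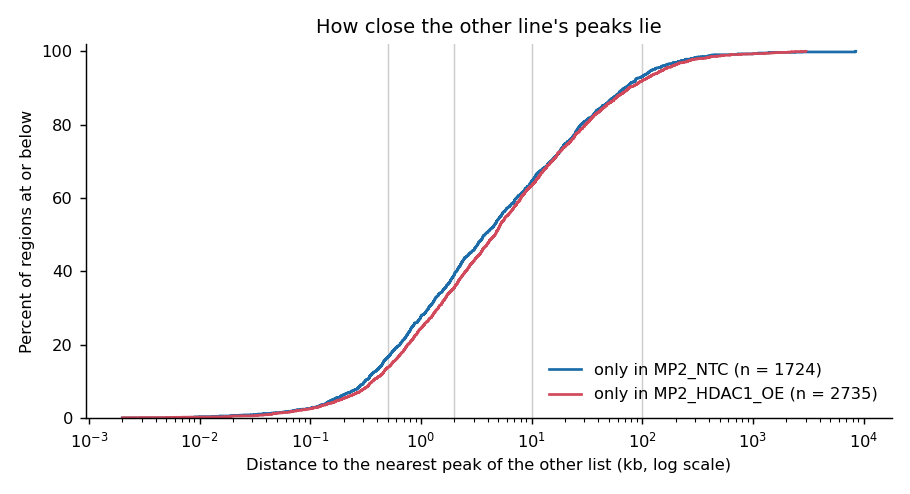
Cumulative percent of regions (y axis) by the distance to the nearest peak of the other list (x axis, kb, log scale), for the distal regions only in MP2_NTC and only in MP2_HDAC1_OE. Vertical lines mark 0.5, 2, 10 and 100 kb, where the MP2_NTC members reach 16.5%, 39.1%, 64.5% and 93.2%.

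Rank and place varied with that distance. The 284 members within 500 bp of an MP2_HDAC1_OE peak had the highest median percentile, 42.7 (37.6 to 46.2), and 62.3% of them lay within a gene (56.6 to 67.8). The 438 members between 2 and 10 kb had a median percentile of 31.3 (29.1 to 32.2), and 78.1% lay within a gene (74.0 to 81.7). The 118 members more than 100 kb away had a median percentile of 38.4 (33.5 to 42.9). The closest case was a member 4.47 kb from *ITGB6*, an integrin subunit (chr2:160204740-160205906, signal 40.4), with 1 bp between it and an MP2_HDAC1_OE peak, and 7 members had at most 10 bp to such a peak. Just outside the rule was a distal region nearest to *EMP1* (chr12:13203178-13204597), whose peaks of both lists overlapped by 3 bp. At the other border, a member at *ADAP1* (chr7:957494-958686) lay 3 bp from a gene end window, a region at *TOMM20* (chr1:234958340-234958608) reached 3 bp into one and was left out, and 120 members lay within 500 bp of a window.

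A few strong members had no MP2_HDAC1_OE peak for over 100 kb. Those named here were picked after their values were seen, by the highest signal among members at least 100 kb from such a peak. Apart from the chromosome 21 group, the strongest lay inside *TWIST2* (chr2:238864387-238865411), the gene of a transcription factor of mesenchymal cells. It had 3 peaks, a signal of 87.8 at percentile 89.0, and 410 kb to the nearest MP2_HDAC1_OE peak. The next lay inside *PFKFB3*, the gene of a regulator of glycolysis (chr10:6275067-6276221), with a signal of 84.7 at percentile 87.3 and a distance of 111 kb. The third lay 40.9 kb from *TMEM174* (chr5:73216006-73216825), inside a gene of another kind, with a signal of 79.3 at percentile 84.4 and a distance of 147 kb.

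Most members lay inside genes. In all, 73.4% of members overlapped a RefSeq gene (71.2 to 75.4), against 68.0% (66.3 to 69.8) of distal regions only in MP2_HDAC1_OE and 64.0% (61.9 to 66.0) of those in both lists. For protein-coding genes the shares were 63.3% (61.0 to 65.6), 54.5% (52.6 to 56.4) and 51.7%. Another 10.0% of the members lay in genes of other kinds alone, and 459 members (26.6%) were intergenic. In both comparisons the interval of the members lay above those of the other classes, although regions are not replicates. The median distance to the nearest gene end was similar in the 3 classes, at 9.03 kb (8.51 to 9.71), 9.21 kb and 9.26 kb. The window at the gene ends sets the lower limit of this distance, and with windows at gene starts alone, an alternative chosen after seeing the data, the median of the members was 5.10 kb. The intergenic members lay at a median of 32.4 kb (27.3 to 43.3) from the nearest protein-coding gene, and 22 members were intergenic and more than 100 kb from any gene end. The most remote was at chr4:59553247-59554271, 1.64 Mb from the nearest protein-coding gene, with a signal of 41.1 at percentile 34.6.

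Members inside genes lay more often toward the start. For 927 members inside 1 protein-coding gene whose strand is given, the gene was split from start to end into 4 parts of equal length, which held 32.0% (29.1 to 35.1), 26.8%, 23.4% and 17.8% of the members. The same order held for regions only in MP2_HDAC1_OE (33.1% to 18.3%) and for those in both lists (35.5% to 14.04%), so it is not particular to the members. The median distance from the gene start was 24.8 kb (21.3 to 27.2). Counted once for each member it held, the host protein-coding gene had a median length of 78.4 kb. This was close to the 80.4 kb and 80.2 kb of the other classes, counted in the same way.

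**Figure D3:**
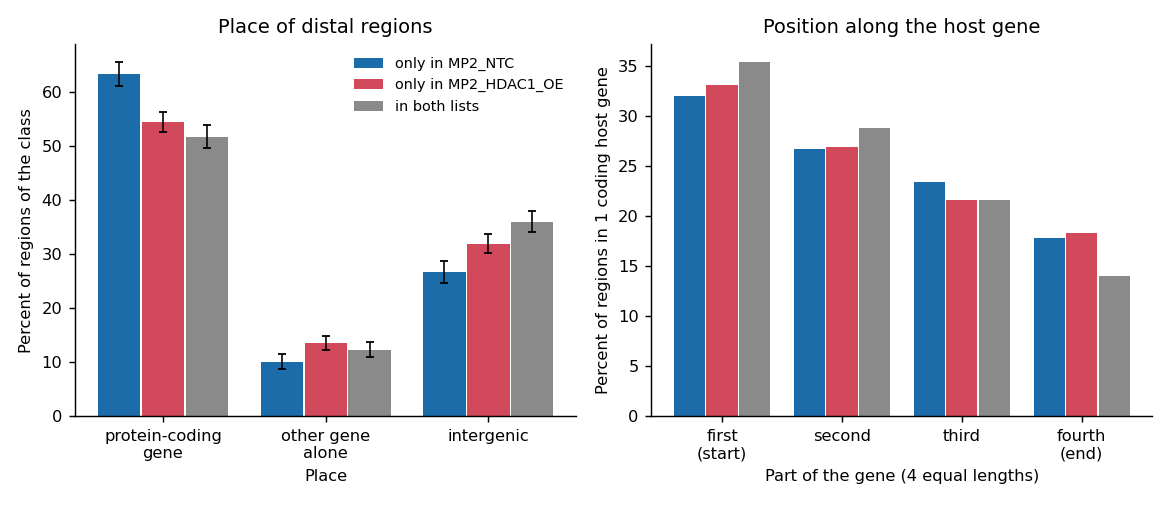
Left, percent of distal regions within a protein-coding gene, within a gene of another kind alone, or intergenic, with 95% Wilson intervals, for regions only in MP2_NTC, only in MP2_HDAC1_OE and in both lists. Right, percent of the regions inside 1 protein-coding host gene in 4 equal parts of that gene from start to end, where all 3 classes fall from the first part to the last.

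Members were spread thinly over many genes, with 833 protein-coding genes holding at least 1 in the body. Of these, 681 held a single member, 152 held at least 2 and 16 held at least 5. In 572 of the 833 the body had no region only in MP2_HDAC1_OE, and in 479 no other distal region at all. The other 261 had such a region in the body. Over all 19970 protein-coding genes, 7.10% held a distal region only in MP2_HDAC1_OE or were the nearest gene of one. That share also counts nearest genes, so it is not a like measure for the 572. Counted in the body alone, among genes with a region at the start, it ran from 1.84% of genes under 10 kb to 17.3% above 300 kb. The 261 of 833 are a larger share than each of these, so genes with members are not set apart as free of such regions. The 479 have no matching share over all genes. The genes with the most members had regions of the other classes too. *DPH6*, an enzyme of diphthamide synthesis, had 10 members, 10 distal regions only in MP2_HDAC1_OE and 1 in both lists. *VMP1*, a membrane protein of autophagy, had 9 of each class. *BCAR3* had 7, 10 and 12. *WDR25* had 7, 5 and 6, and *MOK*, a kinase of the MAP kinase group, had 6, 7 and 5. *PDE10A*, a phosphodiesterase of cyclic nucleotides, had 6, 11 and 8, and *RAD51B*, of homologous recombination, had 6, 28 and 17. The last places by number were tied at 5 members between *ACTN4*, *ADGRG6*, *CAMTA1*, *DST*, *HIVEP3*, *PPM1H*, *TOX2* and *WWTR1*. Among these 16 genes *CAMTA1*, a transcription activator that binds calmodulin, was the only one with 0 regions only in MP2_HDAC1_OE in its body.

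Within such a gene the members differed widely in rank. In *DPH6* the 10 members spanned 218 kb, from percentile 3.76 to 64.5 with a median of 31.4, and the strongest (chr15:35510856-35511675) had a signal of 58.7. In *VMP1* the members were stronger, from percentile 24.9 to 78.7 with a median of 62.0, and the strongest (chr17:59786228-59786608, signal 71.9) lay 451 bp from an MP2_HDAC1_OE peak. In *BCAR3* a single member was high, at percentile 96.7, and the other 6 ranked from 8.48 to 28.4. In *WDR25* the members ranked from 1.81 to 47.0 and in *MOK* from 9.06 to 66.8.

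A region of both lists was the most frequent state at the starts of genes with members. Of 951 genes that hold a member or lie nearest to one and have a strand in the promoter table, 50.2% (47.0 to 53.3) had a region of both lists in the window from 2 kb before to 1 kb after the start, 6.73% (5.31 to 8.50) a region only in MP2_NTC, 9.25% (7.57 to 11.3) a region only in MP2_HDAC1_OE, 1.79% one of each, and 32.1% no region. Over all 15812 such protein-coding genes the shares were 36.5%, 5.34%, 6.07%, 1.18% and 50.9%. Genes of distal regions only in MP2_HDAC1_OE had similar shares to those of the members, at 47.0%, 6.36%, 9.58%, 2.18% and 34.8%. The pattern is therefore not particular to the members. A start with peaks only in MP2_NTC was less frequent than one with peaks only in MP2_HDAC1_OE in each of these sets of genes. Among 688 genes with a member and without a distal region only in MP2_HDAC1_OE, 296 had a start region of both lists, and its percentile in MP2_NTC minus that in MP2_HDAC1_OE had a median of -0.08 (-1.99 to 1.56), against -0.66 (-1.04 to -0.36) over all protein-coding genes with such a start. For genes with a distal region only in MP2_HDAC1_OE and no member the median was 0.37 (-0.77 to 2.05). Genes with both had a median of -2.76 (-6.37 to -0.04). Single genes departed from these medians. At *VMP1*, where the promoter sequence itself lay under a region only in MP2_HDAC1_OE, the region of both lists in the window ranked at percentile 93.8 in MP2_NTC and 27.3 in MP2_HDAC1_OE, and at *DPH6* at 27.5 and 77.3.

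Members occurred on every chromosome with distal regions and were densest per length on chromosomes 19 and 17. Chromosome 19 had 127 members, 2.17 per Mb, and chromosome 17 had 129, 1.55 per Mb. By number chromosome 1 led with 211, followed by chromosome 5 with 156. As a share of each chromosome's distal regions the members ran from 17.8% on X (12.5 to 24.8) and 19.7% on both chromosome 11 (14.8 to 25.7) and chromosome 12 (15.7 to 24.6) to 30.4% on chromosome 5 (26.6 to 34.5) and 30.7% on chromosome 4 (23.8 to 38.5). The intervals of chromosomes X, 11 and 12 lay below the share over all chromosomes and that of chromosome 5 lay above it, while those of the remaining chromosomes held it.

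**Figure D4:**
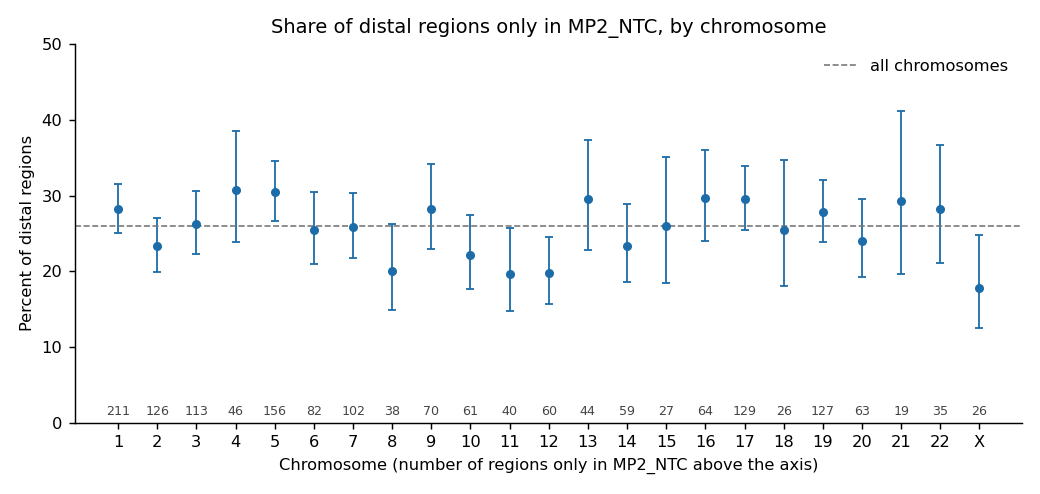
Percent of the distal regions of each chromosome that were only in MP2_NTC, with 95% Wilson intervals and the number of these regions above the x axis. The dashed line is the share over all chromosomes, and chromosomes X, 11 and 12 lie lowest, at 17.8%, 19.7% and 19.7%.

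Some stretches held many members, in some places among many other distal regions and in others among few. Whether members were grouped more than distal regions in general was not tested. Of 1254 windows of 1 Mb with a distal region, 752 had a member, 79 had at least 5 and 17 had at least 10, and the 79 windows held 583 members (33.8%). The most, 18, lay at 189 to 190 Mb on chromosome 3, with 8 nearest to *TPRG1*, 7 to *TP63*, a transcription factor of the p53 family, and 3 to *P3H2*, a collagen prolyl hydroxylase. The same window had 35 regions only in MP2_HDAC1_OE and 48 in both lists, so members were 17.8% of it, below the 26% of all distal regions. The window at 75 to 76 Mb on chromosome 12 had 16 members near *PHLDA1* and *KRR1*, which were 27.1% of its distal regions. The window at 53 to 54 Mb on chromosome 20 also had 16, near the transcription factor gene *ZNF217* and *BCAS1*, or 22.5%.

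In other windows with many members they were a larger share. At 80 to 81 Mb on chromosome 4, 9 members, of which 5 were nearest to *PRDM8*, stood beside 3 regions only in MP2_HDAC1_OE and 1 in both lists, or 69.2% of the distal regions. At 38 to 39 Mb on chromosome 19, 10 members, of which 5 lay at *ACTN4*, the gene of an actin crosslinking protein, stood beside 6 and 3, or 52.6%. At 13 to 14 Mb on chromosome 19 there were 14 members, 4 each nearest to *NFIX*, a nuclear factor I gene, and *IER2*, an immediate early gene, beside 7 regions only in MP2_HDAC1_OE and 10 in both lists, or 45.2% of the distal regions. At 83 to 84 Mb on chromosome 3, a stretch without protein-coding genes where *CADM2*, a cell adhesion gene, was the nearest, there were 13 members, 16 regions only in MP2_HDAC1_OE and 4 in both lists. The windows and the genes named in them were picked by the number of members after it was seen, so these shares describe them and carry no test.

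**Figure D5:**
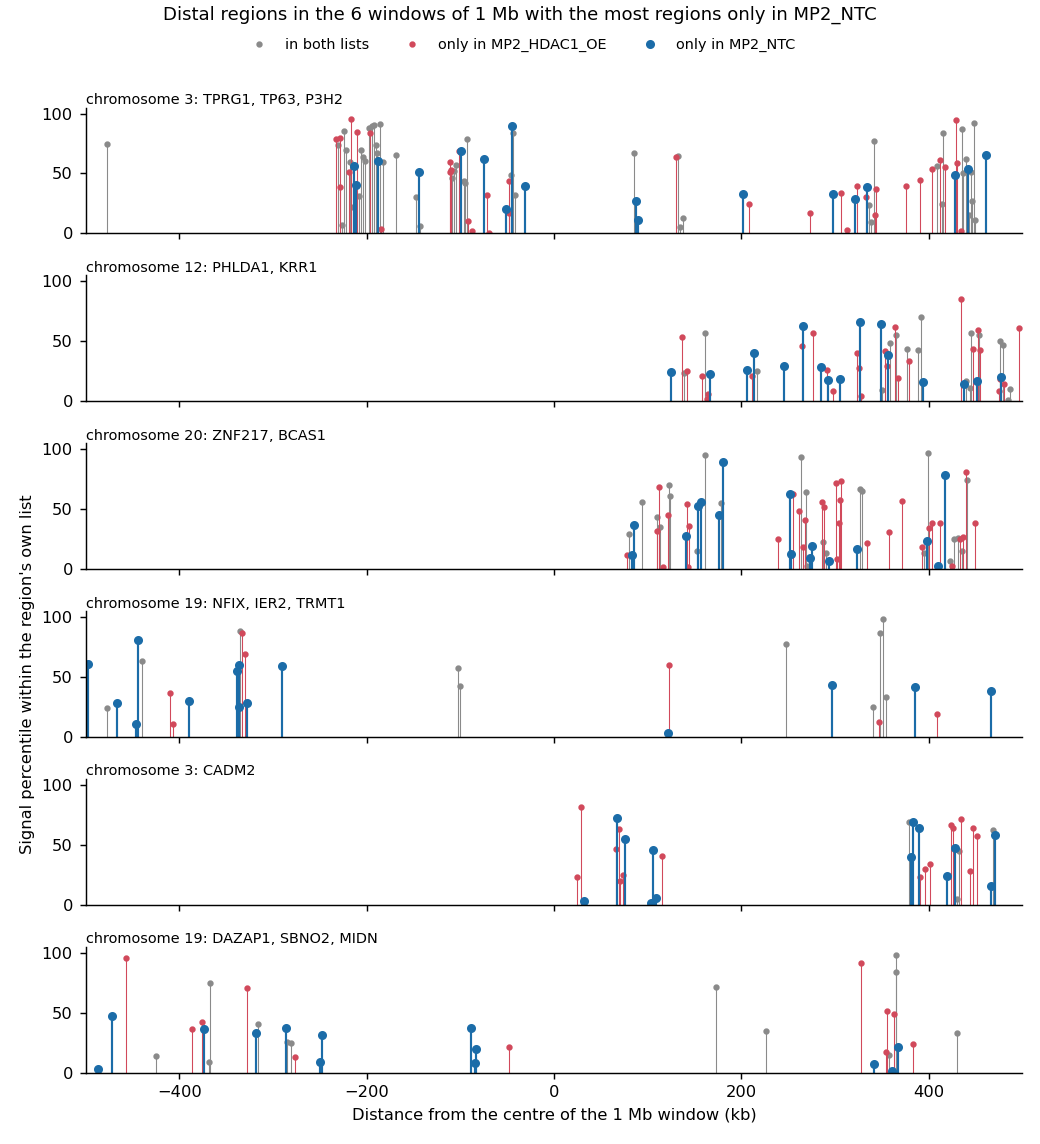
Distal regions in the 6 windows of 1 Mb with the most members, each drawn by its distance from the window centre (x axis, kb) and its signal percentile in its own list (y axis; regions of both lists are ranked in MP2_NTC). Members lie among regions of the other classes in every panel, and in the *CADM2* window 13 members stand beside 16 regions only in MP2_HDAC1_OE and 4 in both lists.

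Some members followed each other along the genome without another distal region between them. With members at 26% of all distal regions, runs also arise in a random order, and a grouping beyond that share was not tested. There were 939 single members, 244 runs of 2, 52 of 3, 18 of 4, 11 of 5, 1 of 6 and 1 of 8. The run of 8 extended over 3263 kb of chromosome 5 (chr5:136052740-139315265) from *TGFBI*, a matrix protein gene induced by TGF-beta, to *MATR3*, with percentiles from 3.69 to 38.9, and 25 regions at gene ends lay between its members, of which 19 were in both lists. The run of 6 extended over 1773 kb of chromosome 17 (chr17:73310067-75083013) from *CDC42EP4*, an effector of the GTPase CDC42, to *SLC16A5*. Among the 11 runs of 5, the 3 shortest were tight groups. At *PRDM8* 5 members lay within 33.1 kb (chr4:80186551-80219602) with no gene end region between them and percentiles from 20.6 to 43.8. At *AMOTL2* 5 lay within 40.2 kb (chr3:134330812-134371009), with 3 gene end regions between them, 2 only in MP2_HDAC1_OE and 1 only in MP2_NTC. At *DPF1*, *PPP1R14A* and *YIF1B* 5 lay within 91.7 kb (chr19:38224133-38315868) with percentiles from 1.01 to 62.6. Between them lay 7 gene end regions, of which 3 were in both lists.

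*AMOTL2*, an angiomotin family member that binds the Hippo pathway effector YAP, had 4 members in a body of only 20.1 kb and 1 outside it. Their signals along the chromosome were 39.9, 79.0, 39.0, 93.9 and 32.2, so the second and the fourth stood out, at percentiles 84.2 and 91.6. The member with the signal of 93.9 (chr3:134363771-134364186) was 553 bp from an MP2_HDAC1_OE peak, and the other 4 were 2.20 to 6.89 kb from one. Its start had a region of both lists, at percentile 94.5 in MP2_NTC and 81.2 in MP2_HDAC1_OE.

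Gene lists of pathways that the study addresses were read with the length of their genes in view. Over all 19970 protein-coding genes 5.79% held a member or were the nearest gene of one. The share rose with gene length: among genes with a region at the start it was 1.90% of those under 10 kb with a member in the body, 5.37% from 10 to 30 kb, 7.59% from 30 to 100 kb, 12.2% from 100 to 300 kb and 14.9% above. The median length was 24.2 kb over all protein-coding genes, while most of the lists had a longer median, up to 180 kb.

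TGF-beta pathway genes had the highest share, 9 of 33 (27.3%, 15.1 to 44.2), with a median length of 80.6 kb. In the same count, distal regions only in MP2_HDAC1_OE were at 21.2% of this list and at 7.10% of all protein-coding genes. *TGFBR3*, a coreceptor that binds TGF-beta, had 4 members in its body at percentiles from 13.6 to 46.0, and *SMURF2*, a ubiquitin ligase of the pathway, had 1 inside and 2 within 20.4 kb, at 35.2 to 68.3. The other 7 genes were *SMAD3* with 2 members and *ACVR2B*, *BMPR1B*, *SKI* and *TGFBR1* with 1 each inside, and *LTBP2* and *SMAD7*, which were nearest to 1 member each at 6.57 and 24.1 kb.

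Axon guidance genes had members at 8 of 37 (21.6%), with a median length of 180 kb. *SEMA3A*, a secreted semaphorin, was the nearest gene of 2 members at 191 and 205 kb, beside 19 regions only in MP2_HDAC1_OE. Hippo pathway genes had members at 4 of 26 (15.4%), led by *AMOTL2* and by *WWTR1*, the gene of the coactivator TAZ, with 5 members in the body at percentiles from 14.4 to 69.1 and 13 regions only in MP2_HDAC1_OE. Genes of HDAC1 and its partners in complexes had members at 4 of 26 (15.4%), with 2 in *GATAD2A*, a subunit of the NuRD complex, and 1 each in *MTA1*, *MTA3* and *NCOR1*. No member lay in or nearest to *HDAC1* itself.

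Genes of the epithelial-mesenchymal transition had members at 5 of 34 (14.7%), and distal regions only in MP2_HDAC1_OE at 29.4%. *CD44*, a hyaluronan receptor, had 1 inside and 1 at 60.6 kb, at percentiles between 13.5 and 29.2, and *TGFBI* had 2 inside, at 3.69 and 12.3. *OCLN* and *TWIST2* had 1 inside each, while *CDH2* was only the nearest protein-coding gene of a member 986 kb away. Matrix and integrin genes had members at 4 of 34 (11.8%), and distal regions only in MP2_HDAC1_OE at 29.4%. Of the members, 4 lay in *COL5A2*, a fibrillar collagen gene, at percentiles from 24.9 to 47.9. Another 2 were nearest to *ITGB1*, the integrin beta-1 gene, at 26.4 and 52.2 kb. Wnt pathway genes had 4 of 40 (10.0%), with 2 in *ROR1*, a Wnt receptor, and AP-1 genes 2 of 18 (11.1%), with 1 in *ATF3* and 1 outside and nearest to *JUN*. Transcription factors of the pancreatic lineage had 1 of 35 (2.86%, 0.506 to 14.5), *EHF*, with 1 member inside and 1 at 22.7 kb, at percentiles between 11.3 and 15.0. Among the other lists, distal regions only in MP2_HDAC1_OE were at 24.3% of axon guidance, 23.1% of Hippo and 19.2% of HDAC1 and partner genes. They were at 16.7% of AP-1, 11.4% of pancreatic lineage and 10.0% of Wnt genes. Only the Wnt share equaled that of the members, and the TGF-beta list went the other way. The intervals are wide, gene length was not taken out of the shares, and nothing is particular to a list from these counts.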

How the data were processed

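H3K27ac ChIP-sequencing (75 bp single-end reads) was analyzed from 1 peak list per line. The authors ran the ENCODE pipeline, and each deposited list is labeled as the optimal peak set of its test of reproducibility (IDR). Whether every peak passed that test between the 2 samples is not given in the sources used here. The submitters' processing notes name hg38, BWA 0.7.12, SAMtools and Picard 1.88, and the peak caller is not given in the sources used here. For each peak the authors deposited an interval, a summit and a signal value, which was used for ranks within a list. Columns of p-values and scores were not used. Genes and promoters came from RefSeq tables (GRCh38.p14, 59094 genes). Peak intervals were merged at 1 bp, and shares have Wilson intervals and medians exact order-statistic intervals.

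The members and the gene lists were chosen with earlier results of these data known. Named genes were set by rule: those of the 12 strongest and 3 widest members, the 10 genes with most members (ties kept), at most 2 genes a list (ties and the other genes of a list were named after their values were seen), the 5 longest runs and the members at each threshold. The tools were matplotlib 3.10.9, scipy 1.17.1, pandas 2.3.3, numpy 2.4.6 and Python 3.11.15, and the code was tested on simulated data. Some genes and 1 list that these rules would name are not reported here.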

Additional observations from a re-analysis of the deposited data

How the results depend on the processing

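The number of members stayed within 1.5 times of 1724 in all 11 alternatives, from 1225 to 2550. Of 76 recomputed values 20 lay outside the interval of the reported one, and the causes were not tested beyond what each alternative removes. With gaps of up to 500 bp counted as overlap, 21.7% of distal regions were members, 75.6% of them within a gene and 27.1% within 2 kb of an MP2_HDAC1_OE peak, at a median percentile of 32.3. With the 75% of peaks of highest signal in each list the median percentile was 42.0 and 84.6% had 1 peak. With that filter on the MP2_NTC list alone the share of distal regions was 19.8%, the median percentile 41.3 and the share with 1 peak 85.6%. Equal numbers of peaks gave a share of 27.9%. The median distance to a gene end was 9.98 kb with windows reaching 2 kb inside genes, 11.9 kb with windows reaching 5 kb outside, 6.30 kb with windows at protein-coding genes alone and 8.0 kb where the summit decided. Single peaks gave a share of 24.3%, a median percentile of 28.4 and 42.5% within 2 kb of an MP2_HDAC1_OE peak. Windows at gene starts alone, chosen after seeing the data, gave a share of 24.9%, a median percentile of 34.5 and a median distance of 5.10 kb. Leaving out chromosomes 11 and 12 changed none of these values beyond its interval. No paired analysis was possible because each line has 1 pooled list, and no replicate could be left out. The lists carry no read counts, so a missing peak cannot be told apart from one below the threshold of its list.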
